A study of Mus musculus with 2 samples.

Results

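This is an account of 8 mouse genes through which killer cells recognise and kill tumour cells: the NKG2D ligand genes Raet1d, Raet1e, Ulbp1 and H60b, the death receptor genes Fas and Tnfrsf10b, and the death ligand genes Fasl and Tnfsf10. They were taken by gene symbol from the feature list of a single-cell RNA-seq experiment, and all 8 were among its 32285 genes, each on 1 row. The samples were RM-1 tumours, grown under the skin of C57BL/6 mice from a transplanted mouse prostate cancer line of wild-type genotype per the labels. One library came from tumours treated with RP-6306, which inhibits the kinase PKMYT1, and the other from tumours given vehicle, both collected on day 10 of treatment. In both, CD45+ leukocytes had been sorted and mixed with tumour cells at 3 parts to 1, so the mixing set the numbers of tumour cells and leukocytes. The sources used here do not give the ages of the mice, and the submitters mention a pair of mice but not which library each gave. With 1 library per group there was no replicate check, and no test between the groups was possible.

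NKG2D, encoded by Klrk1, is an activating receptor on NK cells and on some T cells. Its ligands are MHC class I-like surface proteins that healthy cells carry little of and that stressed, infected, DNA-damaged or proliferating cells display: Raet1d and Raet1e encode the RAE-1 delta and epsilon proteins, Ulbp1 encodes MULT1, and H60b encodes a relative of the minor histocompatibility antigen H60. Fas and TRAIL receptor 2, encoded by Tnfrsf10b and the only death receptor for TRAIL in the mouse, recruit FADD and caspase-8 once they bind Fas ligand (Fasl) or TRAIL (Tnfsf10), which NK cells and T cells make. PKMYT1 holds CDK1 inactive until a cell is ready for mitosis, and E2F factors switch on genes of S phase.

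The 4 ligand genes lie on chromosome 10 of GRCm38, in the GENCODE annotation. Ulbp1 spans 7440362 to 7473638 on the minus strand, and the others lie together on the plus strand, with H60b at 22158586 to 22288849 and Raet1d at 22360552 to 22374139. Fas lies at chr19:34290666-34327772 (plus strand), Tnfrsf10b at chr14:69767472-69784411 (plus), Fasl at chr1:161780689-161788495 (minus) and Tnfsf10 at chr3:27317028-27342427 (plus). The annotated Raet1e gene reaches over both, from 22158569 to 22374139, because 1 of its 4 transcripts ends in the last exon of Raet1d. Raet1e and Raet1d thus share 363 exonic bases at a common 3′ end, 22373777 to 22374139, and Raet1e shares 133 exonic bases with H60b at 22158586 to 22158718. The separate last exon of Raet1e and the last exon of Raet1d, each 363 bases long, differ at 7 bases and are identical over a stretch of 145. The library kit reads the 3′ ends of transcripts, so the split of reads between Raet1d and Raet1e is uncertain, and their sum is given beside them. The sources used here do not say how reads that fit both genes were counted.

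**Figure D1:**
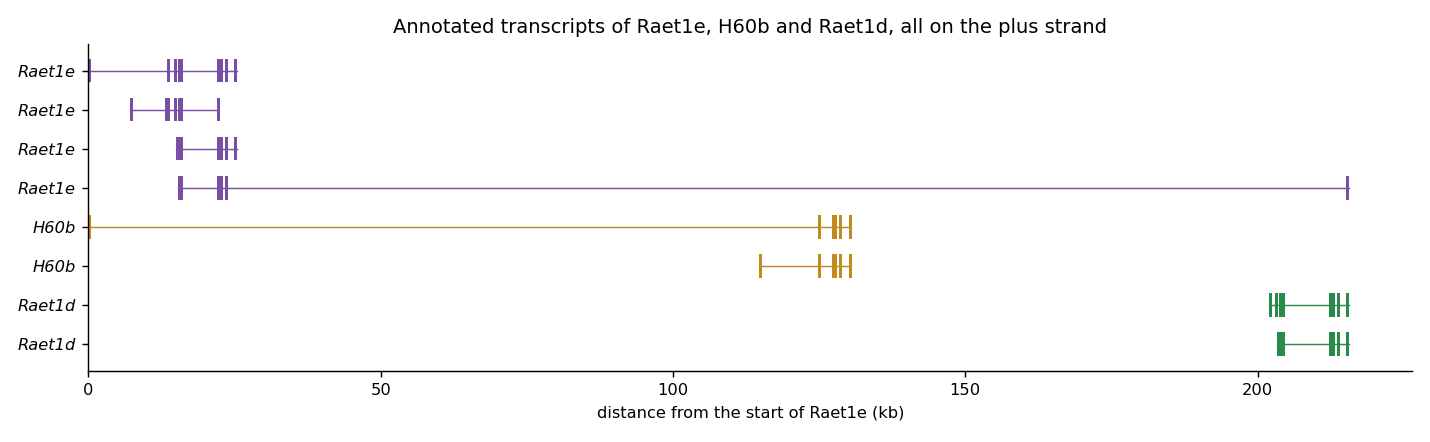
Annotated transcripts of Raet1e, H60b and Raet1d along the plus strand of chromosome 10, as distance in kilobases from the start of Raet1e; boxes are exons, drawn at a minimum width, and lines are introns. Of the 4 Raet1e transcripts, 1 runs over H60b and ends in the last exon of Raet1d.

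The RefSeq promoter table for GRCm38.p6, with windows of 250 bases before to 50 after a gene's start, held 6 of the 8 genes in 7 windows. Shown first is the Ulbp1 window before the start (chr10:7473478-7473727, minus strand, 5′ to 3′), because of these genes Ulbp1 had the largest ratio of S phase to G1. The start used is that of RefSeq. The GENCODE start of Ulbp1, 7473638, lies inside this stretch, so part of the stretch falls within the GENCODE gene. The capitals mark the letters TTCCCGC, the core of the motif bound by E2F factors.

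Ulbp1: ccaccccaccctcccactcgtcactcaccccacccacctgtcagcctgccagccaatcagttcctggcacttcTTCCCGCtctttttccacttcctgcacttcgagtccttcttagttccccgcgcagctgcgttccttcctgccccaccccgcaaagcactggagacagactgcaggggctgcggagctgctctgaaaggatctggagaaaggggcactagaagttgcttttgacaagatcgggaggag

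The windows of Raet1d (chr10:22361644-22361891) and Raet1e (chr10:22173249-22173496), both on the plus strand, are shown for their near-identical sequence. The levels given to these genes differed by cell class and phase, though the split of reads between them is uncertain. Raet1e has another window, at chr10:22158319-22158618, and the one that best matched Raet1d was taken. Over 248 aligned bases the windows shown differed at the 3 positions in capitals.

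Raet1d: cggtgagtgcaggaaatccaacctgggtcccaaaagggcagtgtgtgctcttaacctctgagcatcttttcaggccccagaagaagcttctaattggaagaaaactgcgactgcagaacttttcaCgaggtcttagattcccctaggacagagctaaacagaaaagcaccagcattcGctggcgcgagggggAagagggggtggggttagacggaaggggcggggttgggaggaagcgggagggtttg
Raet1e: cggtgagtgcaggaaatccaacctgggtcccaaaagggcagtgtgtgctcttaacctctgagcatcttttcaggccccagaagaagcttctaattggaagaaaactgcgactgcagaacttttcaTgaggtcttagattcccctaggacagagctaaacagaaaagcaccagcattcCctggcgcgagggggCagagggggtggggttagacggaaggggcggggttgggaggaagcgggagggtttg

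Next, 3 sets of letters were looked for on both strands of the whole 300-base windows, chosen after the sequences had been seen. TTCCCGC stood in 1 of the 7 windows, that of Ulbp1, 177 bases before the RefSeq start, and in 4.60% of all 32851 windows of the table. It lies nearer to the GENCODE start. The GC box GGGCGG stood in 5 of the 7 windows, all but those of Ulbp1 and Tnfsf10, and in 35.7% of all windows. The AP-1 letters TGANTCA stood in the Fas window alone among the 7, and in 7.81% of all windows. Such matches describe letters and not bound sites.

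After filters and the removal of likely doublets, 14915 cells of the RP-6306 library and 16081 of the vehicle library remained, with medians of 2847 and 3116 unique molecular identifiers (UMIs, counted RNA molecules) per cell. The libraries shared 327 cell barcodes. Cells were clustered on genes that held none of the 8, and clusters were named "-like" from marker genes. Tumour-like cells numbered 2811 with RP-6306 and 2548 with vehicle, and they held far more RNA than leukocytes, with medians of 33735 and 28498 UMIs. Levels are given as CPM, the UMIs of a gene scaled to all UMIs of its class and library. The cells carried the epithelial keratin Krt8 at 504.0 and 477 CPM, and Krt18 and Krt19 too, while Krt5 and Cdkn2a had 0 UMIs and Epcam was low at 5.54 and 3.52 CPM. The leukocyte classes with at least 50 cells in both libraries were NK-like (142 and 410), CD8 T-like (2346 and 2372), CD4 T-like (2851 and 1609), regulatory T-like (124 and 192), B-like (3461 and 3509) and macrophage and monocyte-like cells (396 and 386). Dendritic-like (54 and 47), neutrophil-like (39 and 49) and gamma delta T-like cells (17 and 50) were named but too few to compare. Another 2674 and 4909 cells stayed unnamed. UMIs were summed per class and library. Every interval given is a 95% interval for counting error only, and log2 ratios are RP-6306 over vehicle on CPM + 1, with intervals computed without this pseudocount. A fold in either direction of at least 1.5 is used as a mark of size, not as a test.

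In tumour-like cells 6 of the 8 genes reached 20 UMIs over both libraries, and 0 of the 6 differed 1.5-fold between them. Of all 16977 genes with that many UMIs, 0.925% were higher with RP-6306 by that fold and 1.77% were lower. The tumour cells carried RNA for 3 of the 4 NKG2D ligands and for both death receptors, and next to none for the death ligands. The ligand genes Raet1d, Raet1e, Ulbp1 and H60b together had 81.2 CPM with RP-6306 and 76.7 CPM with vehicle, a log2 ratio of 0.08 (0.03 to 0.13). This sum rested on Ulbp1, since without that gene the log2 ratio was -0.02.

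Ulbp1 had 22.1 CPM (21.2 to 23.0) in RP-6306 tumour-like cells and 16.95 CPM (16.03 to 17.9) in vehicle ones, from 2196 and 1267 UMIs. Its log2 ratio was 0.36 (0.28 to 0.48), the largest among the measured ligand genes, and the intervals of the libraries did not overlap. With cells of at least 1000 UMIs the log2 ratio was 0.23, and with coarser clusters it was 0.12. Raet1d had 17.9 CPM (17.1 to 18.7) with RP-6306 and 19.2 CPM (18.2 to 20.2) with vehicle, a log2 ratio of -0.10. The intervals of these levels overlapped, while that of the ratio, -0.20 to -0.00081, lay just below 0. Raet1e had 41.2 CPM with RP-6306 and 40.6 CPM with vehicle, a log2 ratio of 0.02 (-0.05 to 0.09). Their sum, which does not depend on how the counted reads were split between them, was 59.0 CPM with RP-6306 and 59.8 CPM with vehicle. H60b was nearly absent, with 3 UMIs in RP-6306 tumour-like cells and 2 in vehicle ones. H60c, the only other NKG2D ligand gene of a list of 5 that the files hold, had 0 UMIs in both.

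Among the receptors, Tnfrsf10b was well detected and Fas was sparse in tumour-like cells, and they leaned in opposite directions. Tnfrsf10b had 42.2 CPM (40.9 to 43.5) with RP-6306 and 35.1 CPM (33.7 to 36.4) with vehicle, a log2 ratio of 0.26 (0.20 to 0.34). Fas had 4.61 CPM (4.20 to 5.05) with RP-6306 and 6.88 CPM (6.30 to 7.50) with vehicle, a log2 ratio of -0.49 (-0.76 to -0.39). Neither pair of intervals overlapped. The receptors summed to 46.8 CPM with RP-6306 and 41.9 CPM with vehicle, a log2 ratio of 0.15 (0.09 to 0.22). The death ligand genes were nearly silent in tumour-like cells: Fasl had 10 UMIs with RP-6306 and 9 with vehicle, and Tnfsf10 had 0.926 CPM with RP-6306 and 0.937 CPM with vehicle.

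**Figure D2:**
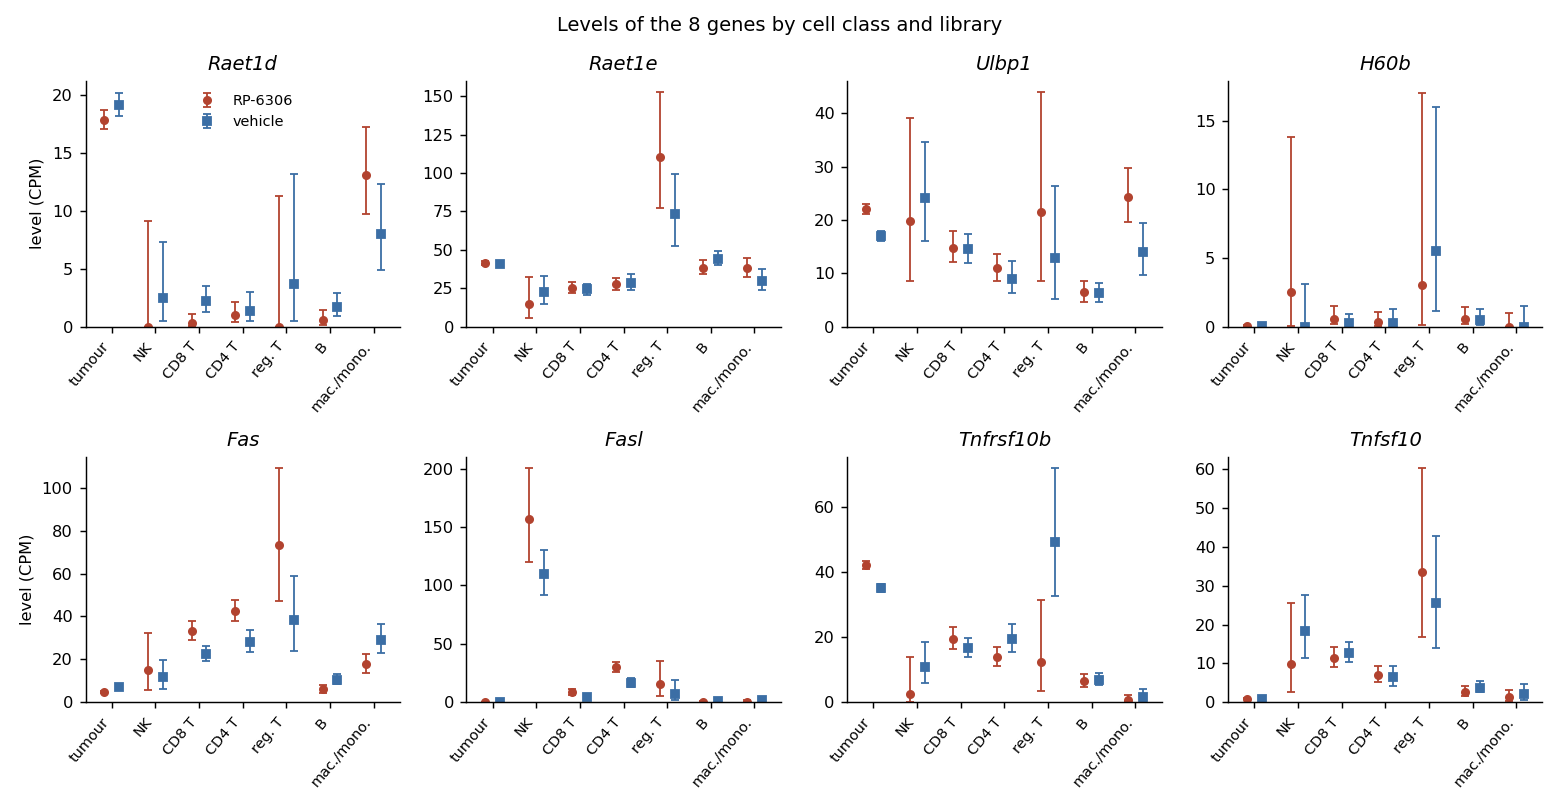
Levels of the 8 genes, in CPM, by cell class, 1 panel per gene; circles are the RP-6306 library and squares the vehicle library, and bars are exact Poisson 95% intervals for counting error. Raet1d stood at 17.9 and 19.2 CPM in tumour-like cells and below 4 CPM in lymphoid classes, whereas Fasl stood at 156 and 110 CPM in NK-like cells and near 0 in tumour-like cells.

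The tumour-like cells of the libraries differed in cell cycle state. After each cell was thinned to 2000 UMIs and scored on 43 S phase and 53 G2/M genes, none of which is among the 8, RP-6306 tumour-like cells were 37.4% G1, 23.8% S and 38.7% G2/M, and vehicle ones were 55.2% G1, 16.1% S and 28.7% G2/M. Without thinning the S shares were 15.05% and 9.77%. A score decides the phase, and 284 of the 2797 RP-6306 cells and 283 of the 2540 vehicle cells lay near the bound between G1 and the other phases. Cells near the bound between S and G2/M were not counted. The phases are thus ranges.

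Ulbp1 followed the cell cycle in both libraries and peaked in S phase. In RP-6306 cells it had 10.98 CPM in G1, 35.7 CPM in S and 22.4 CPM in G2/M. In vehicle cells it had 9.51 CPM in G1, 34.1 CPM in S and 19.4 CPM in G2/M. S exceeded G1 by 1.62 on the log2 scale with RP-6306 (1.52 to 1.88) and by 1.74 with vehicle (1.64 to 2.05). After thinning, 1.72%, 6.15% and 4.43% of RP-6306 cells in G1, S and G2/M had an Ulbp1 UMI, and 1.71%, 5.64% and 2.88% of vehicle cells, in the same order of phases. Raet1d, too, was lowest in G1 and highest in S: 12.5, 21.5 and 19.8 CPM in G1, S and G2/M with RP-6306, and 14.8, 24.7 and 23.2 CPM with vehicle. Thus 2 of the 6 measured genes, Ulbp1 and Raet1d, were 1.5-fold higher in S than in G1 in each library. By this rule 8.06% of all genes were higher with RP-6306 and 7.19% with vehicle. The same genes passed it in G2/M over G1, where 7.53% and 7.17% of all genes did.

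Raet1e ran the other way, highest in G1. It had 48.5, 40.5 and 36.1 CPM in G1, S and G2/M with RP-6306, and 45.2, 38.6 and 34.2 CPM with vehicle. The sum of Raet1d and Raet1e was nearly level, at 61.0, 62.0 and 55.9 CPM with RP-6306 and 59.99, 63.3 and 57.4 CPM with vehicle. In the sum, which moving counted reads from one gene to the other cannot alter, the opposed patterns cancelled. Any reads that fit both genes and were left uncounted would be missing from it.

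Of the death receptors, Tnfrsf10b was level over the cycle, at 41.7, 45.7 and 40.4 CPM in G1, S and G2/M with RP-6306 and 34.8, 36.5 and 34.7 CPM with vehicle. Fas was lowest in S, with 5.52, 3.28 and 4.71 CPM with RP-6306 and 7.19, 5.96 and 6.89 CPM with vehicle. On the log2 scale of S over G1, Fas stood at -0.61 (-1.15 to -0.37) with RP-6306. In vehicle cells it stood at -0.23 (-0.65 to 0.10), an interval that included 0. With RP-6306 it was 1 of 6 genes that stood 1.5-fold lower in S than in G1, against 4.86% of all genes, and with vehicle there were 0 of 6 against 3.24%. G2/M over G1 had 0 of 6 genes lower by this fold in either library, against 6.31% of all genes with RP-6306 and 5.72% with vehicle.

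**Figure D3:**
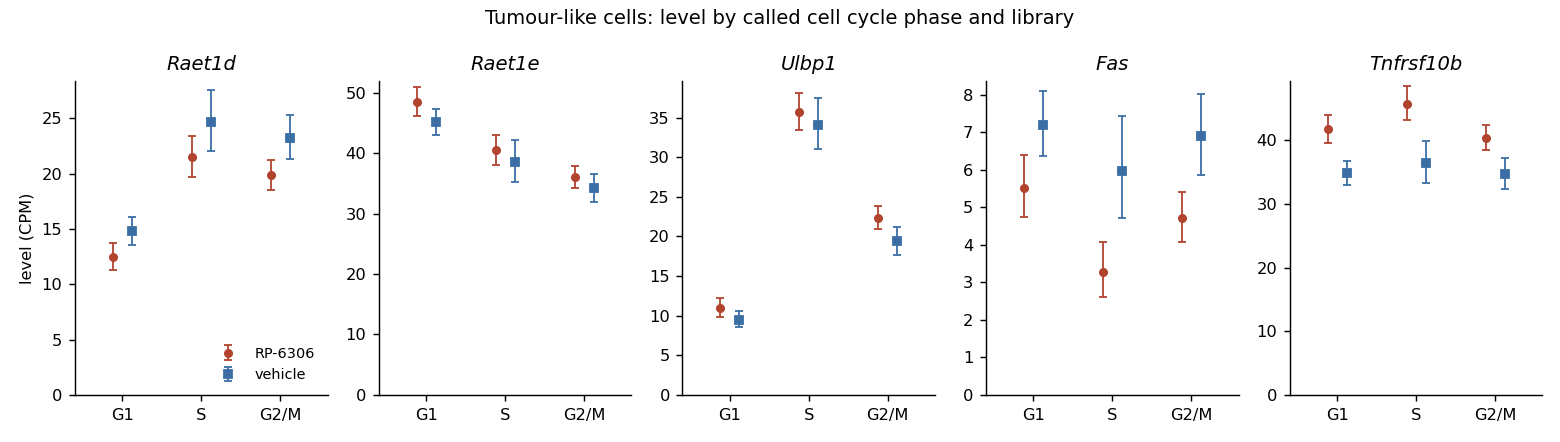
Levels in tumour-like cells (CPM) by called cell cycle phase, 1 panel per gene; circles are RP-6306 and squares vehicle, with exact Poisson 95% intervals for counting error. Ulbp1 peaks in S at 35.7 and 34.1 CPM, Raet1d is lowest and Raet1e highest in G1, and Tnfrsf10b is higher with RP-6306 in each phase.

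Compared within a phase, the libraries were closer in Ulbp1 than over all tumour-like cells: the log2 ratio was 0.19 in G1, 0.06 in S and 0.20 in G2/M, against 0.36 over all phases. Raet1d was lower with RP-6306 in each phase, at -0.23, -0.19 and -0.22 in G1, S and G2/M. Tnfrsf10b was higher with RP-6306 in each phase, at 0.25, 0.32 and 0.21 in the same order, and Fas was lower in each, at -0.33, -0.70 and -0.47. The tumour-like cells formed 2 clusters. In cluster 4, led by histone and mitotic genes, the log2 ratio was 0.11 for Ulbp1, 0.26 for Tnfrsf10b and -0.50 for Fas. In cluster 3 it was 0.35 for Ulbp1, 0.27 for Tnfrsf10b and -0.45 for Fas.

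Of the genes listed beside these pathways, 0 differed 1.5-fold between the libraries in tumour-like cells. The median log2 ratio of all measured genes there was 0.01, and lists are described by their counts and medians. The share of all genes with a ratio above 0 is not given for any class. Counts of list genes above or below 0 are therefore descriptions only. Of the death signalling genes, the adaptors, proteases and mitochondrial factors downstream of the receptors, 14 of 17 had a ratio above 0, with a median of 0.14. The largest ratio was that of Htra2, a mitochondrial protease that antagonises inhibitors of cell death, with 31.2 CPM with RP-6306 and 22.6 CPM with vehicle (0.45), while Apaf1, the apoptosome scaffold, had 69.6 CPM with RP-6306 and 81.3 CPM with vehicle (-0.22). Of the inhibitors of cell death, 7 of 13 were above 0, with a median of 0.07. Birc5, encoding survivin, which is also a protein of mitosis, had 161 CPM with RP-6306 and 114 CPM with vehicle, a log2 ratio of 0.49. Birc2 and Birc3, encoding the cellular inhibitors of apoptosis, stood at 0.25 and 0.24, and Serpinb9, an inhibitor of granzyme B, at 0.24.

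Of 10 regulators of the DNA damage response, p53 and E2F, 7 had a ratio above 0 and the median was 0.21. Atr, the kinase of replication stress, had 40.9 CPM with RP-6306 and 32.5 CPM with vehicle (0.32), Trp53 stood at 0.24, E2f3 at 0.23 and Chek1 at 0.21. Of the proteases that can cut ligands off the cell surface 4 were measured and 4 had a ratio below 0, with a median of -0.15. Adam10 had 219.9 CPM with RP-6306 and 255 CPM with vehicle (-0.21), Mmp9 stood at -0.16, Mmp14 at -0.13 and Adam17 at -0.01. Among 6 other measured death receptors and decoys, 2 were above 0 and the median was -0.05. Tnfrsf23, a TRAIL decoy receptor of the mouse, had 29.8 CPM with RP-6306 and 38.4 CPM with vehicle (-0.36), the death receptor gene Tnfrsf21 stood at 0.27, Eda2r at -0.27 and Tnfrsf22, another decoy, at -0.08. Of 5 other ligand genes of the TNF family, not all of them death ligands, 1 was above 0 and the median was -0.08. Tnfsf11 stood at 0.23, Ltb at -0.23, Tnfsf15 at -0.18 and Lta at -0.08, all 4 under 2 CPM in both libraries. The NKG2D receptor and adaptor list had 8 of 8 ratios below 0 and a median of -0.09. Syk, a kinase of its signalling, had 2.79 CPM with RP-6306 and 3.80 CPM with vehicle (-0.34), Tyrobp stood at -0.21, Pik3r1 at -0.09, and Klrk1 itself had 7 and 13 UMIs. Sums of leukocyte markers in the tumour-like cells mostly ran the same way, but not all. The CD4 T markers were higher with RP-6306 (7.70 CPM against 6.21 CPM with vehicle). So were the plasma cell (97.5 against 94.5) and mast cell markers (0.252 against 0.187). The 10 NK markers, which include Tyrobp, summed to 88.9 CPM with RP-6306 (8 with UMIs) and 137.5 CPM with vehicle (10 with UMIs). Tyrobp gave 58 of their 8832 UMIs with RP-6306 and 62 of 10279 with vehicle, against 507 of 4017 in RP-6306 NK-like cells. How much of this sum is leukocyte RNA was not tested. The 9 macrophage markers, all with UMIs, summed to 20.9 CPM with RP-6306 and 30.1 CPM with vehicle, and Ptprc had 12.1 CPM with RP-6306 and 16.02 CPM with vehicle. Their part in the result was not tested.

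Leukocytes held the death ligands. Fasl stood far above its level in other classes in NK-like cells, with 156 CPM (120 to 200.2) with RP-6306 and 110 CPM (91.8 to 130.1) with vehicle, a log2 ratio of 0.51 (0.06 to 0.96). A Fasl UMI was present in 33.1% of RP-6306 and 26.3% of vehicle NK-like cells, and in 25.7% and 18.6% after thinning. B-like cells, which should make little of it, had one in 0.0578% and 0.171%, at medians of 1933 and 2168 UMIs per cell against 2701 and 2736 in NK-like cells. The order of Fasl levels below NK-like cells was CD4 T-like, regulatory T-like and CD8 T-like cells, and the ranges of regulatory T-like and CD8 T-like cells over the libraries overlapped. Fasl was also high in unnamed T cell clusters: T11, led by Gzmk, had 83.2 CPM with RP-6306 and 64.1 CPM with vehicle, and T7, led by Klra6, had 49.5 CPM with RP-6306 and 64.4 CPM with vehicle. Over all unnamed cells Fasl was lower with RP-6306, at 4.50 CPM against 6.42 CPM with vehicle (-0.43, -0.88 to -0.15), from 100 and 178 UMIs. Over all kept cells it had 3.03 CPM with RP-6306 and 3.44 CPM with vehicle (-0.14, -0.38 to 0.01), so it was higher with RP-6306 in the NK-like and both conventional T cell classes and not over the whole libraries.

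In CD4 T-like cells Fasl had 29.8 CPM with RP-6306, against 16.3 CPM with vehicle, a log2 ratio of 0.83 (0.47 to 1.28) from 202 and 71 UMIs. It was the 1 of 6 measured genes past 1.5-fold upward there, against 4.12% of all genes, and 0 of 6 were lower by this fold, against 6.74%. Most RP-6306 cells of the class lay in cluster T1 (1894, against 466 of vehicle) and most vehicle cells in cluster T2 (725 of RP-6306, against 1027). Within T1 the log2 ratio of Fasl was 0.79 and within T2 it was 0.61. In CD8 T-like cells Fasl had 8.54 CPM with RP-6306, against 4.37 CPM with vehicle, again a log2 ratio of 0.83 (0.33 to 1.62), from 59 and 34 UMIs. Within cluster T0 it was 1.43 (18 and 4 UMIs) and within T3 it was 0.72 (31 and 29 UMIs). It was 1.29 with cells of at least 1000 UMIs, 0.43 with each cell assigned by its own marker scores and 0.37 with a pseudocount of 10 CPM. This too was the 1 gene of 6 past the fold upward, against 2.62% of all genes, with 0 lower, against 5.8%.

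Tnfsf10 did not follow Fasl. Regulatory T-like cells had the highest level, 33.7 CPM with RP-6306 and 25.6 CPM with vehicle, on 11 and 14 UMIs. NK-like cells had 9.94 CPM with RP-6306, against 18.3 CPM with vehicle, on 4 and 22 UMIs, and the interval of their log2 ratio ran from -2.88 to 0.68. That gene was the 1 of 5 measured in NK-like cells that was lower by the fold, where 9.02% of all genes were, and 0 of 5 were higher, against 9.7%. CD8 T-like cells had 11.4 CPM with RP-6306 and 12.7 CPM with vehicle, and their range overlapped that of NK-like cells. The 2 death ligands together gave 166 CPM with RP-6306 and 128 CPM with vehicle in NK-like cells (log2 0.38, -0.06 to 0.80). In CD8 T-like cells they gave 19.97 CPM with RP-6306 and 17.1 CPM with vehicle (0.21, -0.13 to 0.58). The sum was lower with RP-6306 in unnamed cells, at 9.23 CPM against 14.6 CPM with vehicle (-0.61, -0.91 to -0.41). It was also lower over all kept cells, at 5.49 CPM with RP-6306 against 7.32 CPM with vehicle (-0.36, -0.55 to -0.28), where Tnfsf10 alone stood at -0.50 (-0.86 to -0.46).

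**Figure D4:**
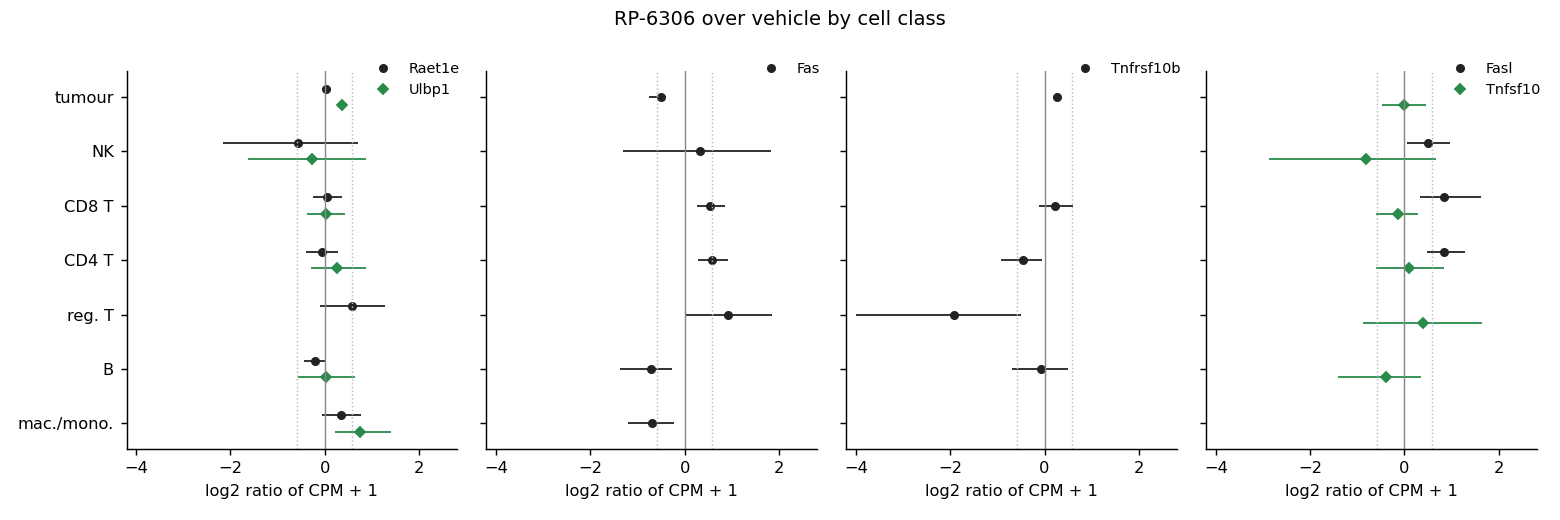
Log2 ratio of levels, RP-6306 over vehicle, on CPM + 1, by cell class; points are the ratio, lines exact 95% intervals for counting error without the pseudocount, the solid line marks 0 and dotted lines a 1.5-fold difference. Fas lies right of 0 in CD8 T-like, CD4 T-like and regulatory T-like cells and left of it in tumour-like, B-like and macrophage and monocyte-like cells, and Fasl lies at 0.83 in both CD8 T-like and CD4 T-like cells.

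The direction of the Fas ratio differed among leukocyte classes, a difference that could not be tested. T cell classes had more of it with RP-6306: CD8 T-like cells had 33.1 CPM with RP-6306 against 22.5 CPM with vehicle (log2 0.54, 0.27 to 0.85), and CD4 T-like cells had 42.6 CPM with RP-6306 against 28.2 CPM with vehicle (0.58, 0.29 to 0.91). Regulatory T-like cells had 73.4 CPM with RP-6306 and 38.4 CPM with vehicle (0.92, 0.03 to 1.85), on 24 and 21 UMIs. In B-like cells it was lower, at 5.99 CPM with RP-6306 against 10.5 CPM with vehicle (-0.71, -1.37 to -0.26), and so it was in macrophage and monocyte-like cells, at 17.8 CPM with RP-6306 against 29.1 CPM with vehicle (-0.68, -1.21 to -0.21). Within the myeloid clusters with at least 20 Fas UMIs the log2 ratio was -0.32 in M0, -1.57 in M4, 0.24 in M7 and -0.09 in M8. Among the 7 compared classes, levels ranked regulatory T-like, CD4 T-like, CD8 T-like, macrophage and monocyte-like, NK-like, B-like and tumour-like. Of these neighbours only macrophage and monocyte-like against NK-like, and NK-like against B-like, had ranges over the libraries that did not overlap. Neutrophil-like cells, too few to compare, stood above them all, at 154.5 CPM with RP-6306 and 122.6 CPM with vehicle, on 10 and 10 UMIs. In B-like cells Fas was the 1 gene of 5 lower by the fold, against 7.88% of all genes, and 0 of 5 were higher, against 2.22%. With each cell assigned by its own marker scores, the B-like ratio was -0.11. Within the CD8 T-like clusters of at least 50 cells per library, Fas stood at 0.73 in T0, 0.47 in T3 and 0.25 in T5, and at -0.58 in T10, which is led by interferon-induced genes and held 13 and 15 Fas UMIs.

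Tnfrsf10b had its highest mean level in tumour-like cells, followed by regulatory T-like cells, where the libraries differed most. Regulatory T-like cells had 12.2 CPM (3.33 to 31.3) with RP-6306 and 49.3 CPM (32.5 to 71.8) with vehicle, from 4 and 27 UMIs, a log2 ratio of -1.93 (-3.99 to -0.49). With each cell assigned by its own marker scores, the ratio was -0.35. That class had 2 of 4 measured genes higher by the fold, Fas and, barely, Raet1e, against 12.8% of all genes, and Tnfrsf10b lower, against 13.2%. CD4 T-like cells had 13.9 CPM with RP-6306 and 19.5 CPM with vehicle (-0.46, -0.93 to -0.05), and CD8 T-like cells had 19.5 CPM with RP-6306 and 16.6 CPM with vehicle (0.23, -0.12 to 0.60). In macrophage and monocyte-like cells it was nearly absent, with 3 UMIs with RP-6306 and 4 with vehicle.

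Free RNA can reach any droplet, so the summed level of the 12 tumour markers was set beside these values. In tumour-like cells 10 of the 12 had UMIs, with Krt5 and Cdkn2a at 0, and the sum was 7855 CPM with RP-6306 and 6678 CPM with vehicle. In the 6 leukocyte classes 5 to 9 markers had UMIs with RP-6306 and 7 to 10 with vehicle, and the sums ran from 264 to 1354 CPM with RP-6306 and from 435 to 1549 CPM with vehicle. In CD8 T-like, CD4 T-like, regulatory T-like and B-like cells it was 3.36% to 10.4% of the tumour-like level with RP-6306, and 6.52% to 21.4% with vehicle. S100a6 made up most of the sum, with 6503 of the 7855 CPM with RP-6306 and 5347 of the 6678 CPM with vehicle in tumour-like cells. The keratins Krt8, Krt18 and Krt19 stood at 3.74% to 4.998% with RP-6306 and 6.76% to 9.05% with vehicle in the same 4 classes, with regulatory T-like cells at 4.39% and 6.89%. In each of the 6 leukocyte classes both percentages were lower with RP-6306. Its part in the differences between libraries was not tested. For Raet1d, CD8 T-like, CD4 T-like and B-like cells stood at 1.62% to 5.77% of the tumour-like level with RP-6306 and 7.16% to 11.4% with vehicle, where the tumour markers stood at 3.36% to 4.68% with RP-6306 and 6.52% to 8.81% with vehicle. The part of free RNA in these few Raet1d UMIs was not tested. With RP-6306, NK-like and regulatory T-like cells had 0 Raet1d UMIs, and the exact intervals reached up to 9.16 and 11.3 CPM.

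Macrophage and monocyte-like cells had Raet1d furthest above the tumour marker share. Of the ligand genes there, the interval of the ratio lay above 0 for Ulbp1, included 0 for Raet1d and Raet1e, and H60b had 0 UMIs in both libraries. Raet1d had 13.1 CPM with RP-6306 and 7.98 CPM with vehicle (log2 0.65, -0.06 to 1.54), which was 73.1% and 41.6% of the tumour-like level, against 17.2% and 23.2% for the tumour markers and 2.06% and 3.26% for Krt8, Krt18 and Krt19. Ulbp1 had 24.3 CPM with RP-6306 and 13.96 CPM with vehicle (0.76, 0.23 to 1.41). These were 2 of 4 measured genes past the fold upward, against 13% of all genes, with Fas the 1 gene past it downward, against 6.06%. Different clusters made up the class. The RP-6306 cells lay most in the macrophage-like clusters M1 (97, against 28 of vehicle) and M6 (69, against 16), and the vehicle cells most in the monocyte-like clusters M2 (28 of RP-6306, against 91 of vehicle) and M0 (64, against 80). Ulbp1 was concentrated in M6, whose leading genes include Mki67 and Kif15, genes of dividing cells, and there it had 60.3 CPM with RP-6306 and 65.8 CPM with vehicle (-0.12, -0.87 to 0.68). In M1, led by Fn1, Ccl2 and Spp1, Raet1d had 29.3 CPM with RP-6306 and 19.8 CPM with vehicle, on 30 and 4 UMIs.

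**Figure D5:**
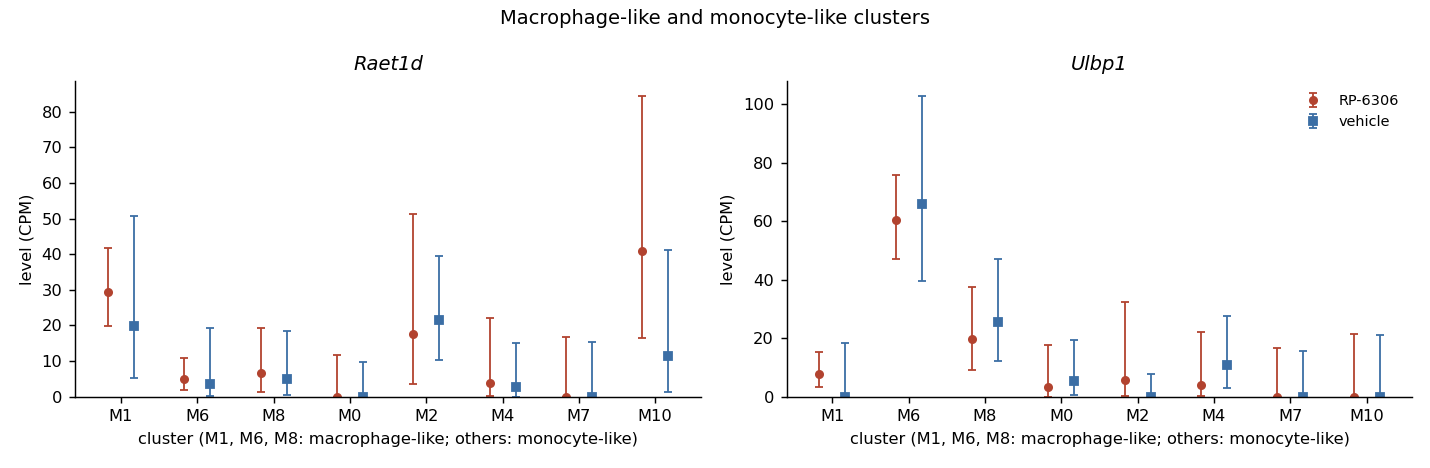
Levels (CPM) of Raet1d and Ulbp1 in the macrophage-like clusters M1, M6 and M8 and the monocyte-like clusters; circles are RP-6306 and squares vehicle, with exact Poisson 95% intervals for counting error. Ulbp1 is highest in M6 in both libraries, at 60.3 and 65.8 CPM.

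UMIs counted for Raet1e and Ulbp1 were not restricted to tumour-like cells. Besides H60b and Raet1d, the annotated Raet1e gene overlaps C920009B18Rik, Gm1972, Gm26581 and Gm5421 on its strand. Their part in its counts was not tested. Raet1e had 14.9 to 110 CPM with RP-6306 and 22.4 to 73.1 CPM with vehicle over the 7 classes, with regulatory T-like cells on top and NK-like cells at the bottom, and B-like cells, at 38.3 and 44.2 CPM, overlapped tumour-like cells, at 41.2 and 40.6 CPM. In regulatory T-like cells its log2 ratio was 0.58 (-0.10 to 1.28). Ulbp1 levels in NK-like, tumour-like, macrophage and monocyte-like, regulatory T-like and CD8 T-like cells overlapped from each class to the next, and CD4 T-like and B-like cells were lowest, at 10.9 and 6.41 CPM with RP-6306 and 8.94 and 6.21 CPM with vehicle. H60b reached 26 UMIs with RP-6306 and 15 with vehicle over all cells, too few to compare in any class.

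The receptor that reads these ligands was measured in NK-like and CD8 T-like cells. In NK-like cells Klrk1 had 469 CPM with RP-6306 and 368 CPM with vehicle (log2 0.35, 0.10 to 0.60), and Hcst, encoding the adaptor DAP10, had 288 CPM with RP-6306 and 219 CPM with vehicle (0.40, 0.07 to 0.72). Of the 8 receptor and adaptor genes 6 had ratios above 0 in NK-like cells, with a median of 0.17 against 0.06 over all genes. Pik3r1 stood at 0.32 and Syk at -0.36. Of the other death receptors and TNF family ligands, Tnfrsf1a at 0.31 and Ltb at 0.12 were the ones measured there. Klrk1 was sparse in CD8 T-like cells, with 10 UMIs in each library. The largest cluster of that class was T0, led by Ccr9 (1492 cells with RP-6306 and 1344 with vehicle). The unnamed T cell clusters T11, led by Gzmk, and T7, led by Klra6, are not part of it, so the class may not stand for cytotoxic CD8 T cells. In CD8 T-like cells 5 of the 8 receptor and adaptor genes were above 0, with a median of 0.10 against 0.03 over all genes. Pik3r1 stood at 0.33, Grb2 at 0.29, Syk at -0.48 and Tyrobp at -0.91, on 9 and 26 UMIs. Of the other death receptors in these cells 1 of 6 was above 0, Tnfrsf25 at 0.45, with Tnfrsf23 at -0.50, Tnfrsf21 at -0.37 and Tnfrsf1a at -0.26. Of 4 other TNF family ligand genes 3 were above 0, Lta at 0.30, Ltb at 0.03 and Tnf at 0.01, with Tnfsf11 at -0.31.

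At the level of single tumour-like cells, NKG2D ligand RNA and death receptor RNA were each found in most cells. A UMI of any ligand gene was in 81.5% of RP-6306 and 78.0% of vehicle cells. One of Fas or Tnfrsf10b was in 69.5% of RP-6306 and 61.9% of vehicle cells. With such shares many cells hold both, and whether more did than by chance was not tested. A UMI of at least 1 ligand gene together with one of Fas or Tnfrsf10b was found in 59.7% (57.8% to 61.5%) of RP-6306 cells and 50.9% (48.9% to 52.9%) of vehicle cells. UMIs of 3 ligand genes were found together in 11.7% of RP-6306 and 8.71% of vehicle cells. These shares grow with depth, and RP-6306 tumour-like cells had the higher median, 33735 against 28498 UMIs. After thinning, 13.3% of RP-6306 and 13.5% of vehicle cells had a UMI of any ligand gene.

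For each gene the most similar pattern of log2(CPM + 1) was looked for over 14 points, 7 classes in 2 libraries, among genes with at least 200 UMIs. As a description, Raet1d was closest to Emp1 (Pearson's r 0.98), Mmp14 and Grn, and Raet1e to Cadm4 (0.93), Xxylt1 and Hsf2. Ulbp1 was closest to Tex261 (0.90), Zyx and Paqr7. Fas was closest to Tent5c (0.94), Ramp1 and Ikbke, and Fasl to Me2 (0.96), Smpd5 and Prf1, which encodes perforin. Tnfrsf10b was closest to Phtf1 (0.96), Cplane1 and Zfp945, and Tnfsf10 to Gfi1 (0.96), Tnfrsf18 and Lrch3. The points share libraries and depths, so the values of r carry no test.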

How the data were processed

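The authors deposited 1 matrix of UMI counts per library, with genes in rows and cell barcodes in columns, made by a droplet kit that reads 3′ ends (SeekOne DD). The submitters' processing notes name Cell Ranger 2.1.1 and mm10, without their roles. The sources used here do not say how cells were called. Cells with at least 500 UMIs, 300 genes and at most 15% mitochondrial UMIs were kept: 15868 of 15909 barcodes with RP-6306 and 17108 of 17313 with vehicle. Scrublet's automatic bound marked 0 and 1 cells and had not worked, so the 6% of cells with the highest scores were removed per library (953 and 1027). Scanpy 1.11.5 clustered the cells on 2000 variable genes, 30 components and 15 neighbours (Leiden resolution 1), with the 8 genes and the lists left out; T and myeloid cells were clustered again. A cluster whose markers were mixed stayed unnamed.

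For each class and library UMIs were added up and divided by total UMIs (CPM). Intervals are exact at 95% (Poisson for levels, conditional binomial for ratios, Clopper-Pearson for shares) and cover counting error only. A gene was measured from 20 UMIs over both libraries, in classes of at least 50 cells in both. The floor of a level was set at 3 UMIs. Phases were called after thinning to 2000 UMIs. Only the ratios and their intervals were run on simulated data, as Poisson sums for the tumour-like class. That simulation shares the assumption of the intervals, so it says nothing on variation between libraries. Clustering, class names, doublet removal and phase calls were not simulated. From each list up to 4 genes with the largest ratios were named; some that the rule picks are not reported here. Members and lists were chosen with earlier results of these data known. Gene bounds come from GENCODE M21 and sequences from RefSeq. H60b and Tnfrsf10b were not matched in the promoter table.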

Additional observations from a re-analysis of the deposited data

Results flagged for a closer look

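The log2 ratio of Fas, RP-6306 over vehicle, differed in direction between cell classes: it was 0.92 in regulatory T-like cells, and -0.71 in B-like cells and -0.68 in macrophage and monocyte-like cells. In these 3 classes the ratio was past 1.5-fold, upward in the first and downward in the others. With 1 library per group the difference between classes was not tested.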

How the results depend on the processing

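No paired analysis was possible because each group has 1 library and no result comes from a test. Of 88 alternative values of 17 summary results, 73 stayed within the counting interval of the value reported or within 1.5 times a count, and of 416 alternative values of 36 single-gene and list results 383 did. The log2 ratio of the summed NKG2D ligand genes in tumour-like cells (0.08) was 0.0153 with clusters at resolution 0.5 and 0.0137 within cluster 4. By alternatives chosen after seeing the data it was 0.00293 within S, 0.0281 within G2/M, 0.14 without Raet1e and -0.0169 without Ulbp1. The death ligand sum in CD8 T-like cells (0.21) was 0.59 within cluster T3, and Fas in CD8 T-like cells (0.54) was -0.58 within T10. Fasl in CD8 T-like cells (0.83) ran from 0.37 to 1.43, leaving aside cluster T5 with 5 and 0 UMIs. For the ligand sum, cluster 4 over cluster 3 gave 0.17 with RP-6306 and 0.24 with vehicle in place of S over G1 (0.44 and 0.48) or G2/M over G1 (0.12 and 0.14), and phases called without thinning gave 0.67 for S over G1 with vehicle. Genes past 1.5-fold in tumour-like cells, 157 higher and 301 lower, numbered 612 and 1109 with a pseudocount of 0.1 CPM and 20 and 79 with 10 CPM. With 10 CPM the log2 ratio of Fas in tumour-like cells was -0.21. Median-of-ratios scaling lowered log2 ratios by up to -0.09, in macrophage and monocyte-like cells, where the median of all genes was 0.10. Other causes of these differences were not tested. Depth limits H60b and Raet1d in lymphoid classes and Tnfsf10 in NK-like cells; the few H60b UMIs in tumour-like cells stand against floors of 0.0302 CPM with RP-6306 and 0.0401 CPM with vehicle.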

Other observations

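Among unnamed cells, cluster 18 was led by histone genes, Rrm2 and Mgl2, and stayed unnamed because its myeloid markers were mixed with tumour markers. It held 104 cells of the RP-6306 library and 1 of the vehicle library. Whether its droplets held RNA of more than 1 cell was not tested. Its RP-6306 cells had 63.4 CPM of Ulbp1 (48 UMIs), 56.8 CPM of Tnfrsf10b (43 UMIs) and 27.8 CPM of Raet1d (21 UMIs). Clusters 11 and 14, which held fibroblast and tumour markers, and cluster 16, in which no lineage scored high enough for a name, had Ulbp1 at 19.3, 25.2 and 28.8 CPM with RP-6306 and at 13.6, 12.5 and 20.1 CPM with vehicle, higher with RP-6306 in each. Chosen after its values were seen, Serpinb9, the granzyme B inhibitor, had 1038 CPM with RP-6306 and 633 CPM with vehicle in NK-like cells, a log2 ratio of 0.71.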
